A study of Mus musculus with 15 samples.

Results

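The library described here came from erythroid cells that lacked R1, the most distant of 5 enhancer-like elements upstream of the mouse α-globin genes (R1_KO). It was set against the libraries of the other 4 single deletions, R2_KO, R3_KO, Rm_KO and R4_KO, which were tabulated together with it. R1_KO is 1 of 15 NG Capture-C libraries in the study. Each single deletion has 1 library, so no value below has a replicate check of its own and no p-value is given.

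All 5 libraries came from E12.5 fetal liver cells of the strain F1 C57Bl6 / CBA. Per the labels' protocols, expansion in culture took 5 to 7 days. Mature red cells were then removed through their Ter119 marker, and the precursors differentiated for 18 hours before crosslinking. The other erythroid libraries of the series, with the same strain and culture labels, were 3 controls, 3 lacking R1 and R2 (R1R2_KO) and 3 lacking R2 and R3 (R2R3_KO). They lie in other tables and serve below for the spread between replicates and as a side value. An E14 embryonic stem (ES) cell library of strain 129/Ola lies in the same table as R1_KO. The sources used here do not say whether the deletion is on both chromosomes or how many embryos a culture pooled.

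NG Capture-C records which DNA lies near a chosen promoter in the nucleus. Chromatin is crosslinked, cut with DpnII and ligated, and the junctions that contain the promoter, called the viewpoint, are enriched with oligonucleotides. Hba-a1 and Hba-a2 encode the α chain of adult haemoglobin. In erythroid cells their promoters come close to the upstream enhancer elements, of which R1, R2 and R3 lie in introns of the neighbouring housekeeping gene Nprl3. The remaining viewpoints were the promoters of Hbb-b1 and Hbb-b2, the adult β-globin genes, and of Slc25a37, which encodes the iron importer of the red cell's mitochondria. Nothing was deleted at those loci, and they serve as references.

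The Hba viewpoint is a pair of promoters whose DNA is near-identical, and the tables hold their contacts as 1 profile. The 200 bases before each gene start are shown, from RefSeq (GRCm38.p6, chr11:32283472-32283671 and chr11:32296292-32296491, plus strand), with the CCAAT and TATAAG motifs in capitals.
Hba-a1: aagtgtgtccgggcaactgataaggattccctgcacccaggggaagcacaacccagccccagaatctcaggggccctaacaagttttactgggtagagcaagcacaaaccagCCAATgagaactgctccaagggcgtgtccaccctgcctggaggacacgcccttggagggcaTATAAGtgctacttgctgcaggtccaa
Hba-a2: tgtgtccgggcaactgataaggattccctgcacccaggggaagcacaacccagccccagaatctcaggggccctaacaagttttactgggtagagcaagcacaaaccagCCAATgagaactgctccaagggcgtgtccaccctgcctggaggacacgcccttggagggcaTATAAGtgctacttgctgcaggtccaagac
With a shift of 3 bases, 197 of 197 aligned bases were identical. The letters GATC, where DpnII cuts, were in neither sequence on either strand, against 34.6% of 32851 promoter windows of the same length. CCAAT was found once in each, and in 29.3% of those windows on either strand. TATAAG was found once in each, and in 5.32% of those windows. All other coordinates below are in mm9, the build of the count tables.

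R1_KO was the deepest library of the comparison at Hba. Library size was taken as the reads on the viewpoint's chromosome more than 2 kb from the viewpoint, and values are reads per 100000 of these. At Hba that was 399610 reads in R1_KO and 235235 to 343228 in the other 4. It was 172739 at Hbb (others 139590 to 219872) and 129319 at Slc25a37 (others 69516 to 110343). Intervals are exact binomial 95% intervals of the ratio of R1_KO to the mean of the comparators. They cover counting error only, since the reads carry no molecular identifiers. The share of reads on other chromosomes at Hba was 37.1% in R1_KO and 31.3% to 45.7% in the rest.

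R1_KO stood apart from the other single deletions at Hbb before any region was summed. At 23 Hbb fragments R1_KO held a median of 12.8% of the mean of the other 4. These fragments were chosen from another table, as those at which R1R2_KO library 1 held under 25% of the mean of R1R2_KO libraries 2 and 3. Values with and without them are given with the Hbb results below. Hba and Slc25a37 had no fragment with R1_KO under 25% among the 310 and 178 fragments compared in the same way.

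At the deleted element itself, contact from the α-globin promoters was lower in R1_KO than in each of the other deletions, but did not reach 0. The R1 block was taken as the fragments that kept less than 50% of the comparators' mean, so its depletion describes how it was found. It has 2 fragments over 2182 bp, chr11:32144385-32146566. R1_KO had 456 reads per 100000 there, R2_KO 1252, R3_KO 1105, Rm_KO 1108 and R4_KO 1074. R1_KO thus kept 40.2% of the mean of the others. The 3 control libraries, from the other table, had 1089 ± 19.8 (SD, n = 3).

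The larger fragment, chr11:32145279-32146566, had 219 in R1_KO and 544 to 669 in the other 4, or 36.9% (95% interval 34.4% to 39.6%). The smaller one, chr11:32144385-32145278, had 238 in R1_KO and 483 to 582 in the others, or 43.8% (40.9% to 46.9%). In ES cells, where the α-globin genes are silent, these fragments had 96.8 and 119. R1_KO thus lay between the ES library and the other deletions at both fragments.

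R1 was the block with the highest share of contact left in its own deletion. By the same rule R2_KO kept 19.5% at R2 (chr11:32150268-32151881), R3_KO 32.5% at R3 (chr11:32155867-32157248), Rm_KO 26.2% at Rm (chr11:32164968-32166169) and R4_KO 27.4% at R4 (chr11:32168682-32169921). The lowest single fragment kept 6.74% at R2, 25.7% at R3, 8.90% at Rm and 11.1% at R4, against 36.9% at R1. The sources used here do not say how much of each fragment the deletion covers.

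The lower contact around R1 was uneven between its sides. The fragment before the block, chr11:32144133-32144384, had 242 in R1_KO and 295 to 322 in the others, or 77.1% (71.7% to 82.7%). The fragment after it, chr11:32146567-32146860, had 328 in R1_KO against 658 in R2_KO, 505 in R3_KO, 571 in Rm_KO and 561 in R4_KO, or 57.1% (53.8% to 60.6%). R1_KO was below all 4 at both neighbours.

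On the side towards R2 the next fragments were also low. The 42 bp fragment chr11:32146861-32146902 had 78.1 in R1_KO and 134 to 159 in the others, which is 52.4% and the value just outside the block's threshold. The 1493 bp fragment chr11:32146903-32148395 followed with 514 in R1_KO and 717 to 848 in the others, or 66.0%. From chr11:32148396 on, the 7 fragments up to R2 lay between 82.2% and 107%. The mean behind these ratios includes R2_KO, which was itself low close to R2. At chr11:32150164-32150267 R2_KO had 269, R1_KO 280 and the remaining libraries 349 to 382. On the other side, the fragment of 2047 bp beyond the neighbour was at 82.4%.

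**Figure D1:**
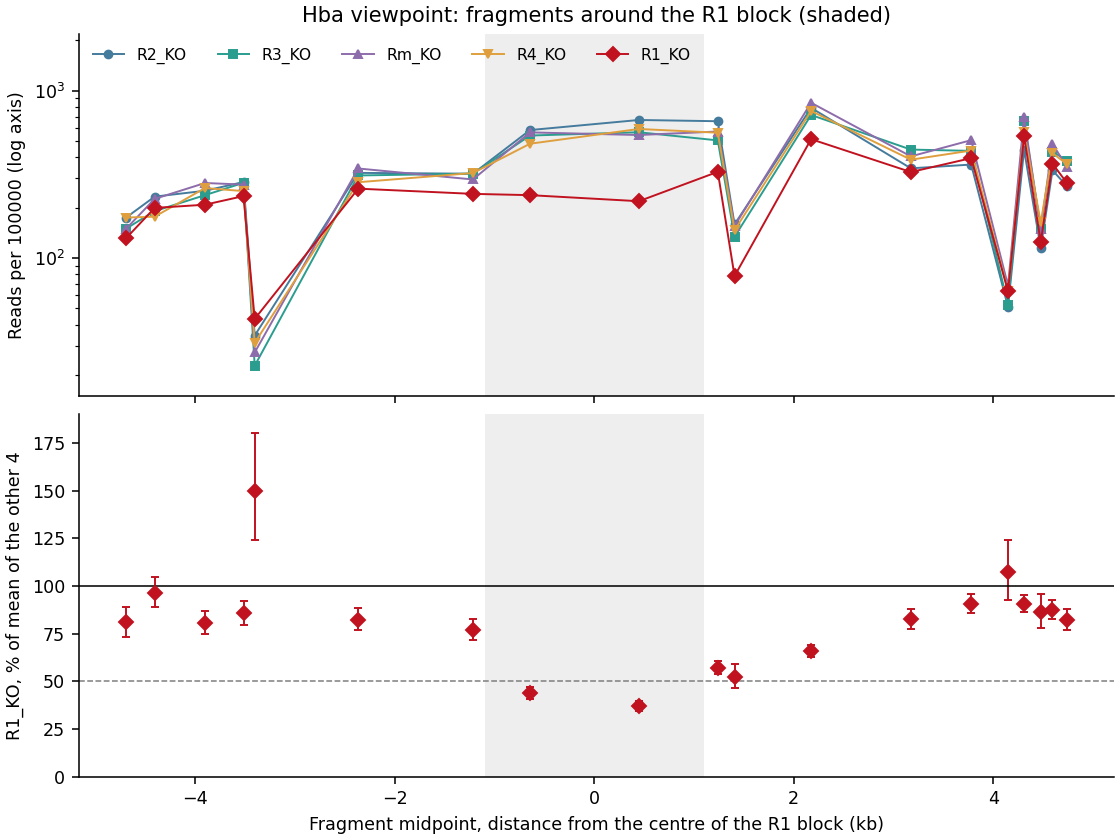
Upper plot, reads per 100000 (log axis) in the 5 libraries for the fragments around the R1 block (shaded); lower plot, R1_KO as a percentage of the mean of the other 4, with 95% counting intervals as bars and the 50% threshold dashed. R1_KO sits at 43.8% and 36.9% inside the block, at 57.1%, 52.4% and 66.0% on the side of R2, and at 77.1% on the other side.

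The elements that R1_KO still carries also had less contact with the α-globin promoters than in the other deletions. At each of the 4 blocks R1_KO was compared with the 3 libraries that keep that element, and it was below all 3 at 4 of 4 blocks. The block values were made with the chromosome's reads as the scale and were not recomputed with other scales. At R2, R1_KO had 1724 reads per 100000, R3_KO 2073, Rm_KO 2296 and R4_KO 2081, a ratio of 80.2% (78.0% to 82.4%) and a log2 difference of -0.32. At R3, R1_KO had 1046, R2_KO 1352, Rm_KO 1573 and R4_KO 1363, a ratio of 73.2% (70.6% to 75.8%) and -0.45. The R3 block showed the widest gap of the 4.

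At Rm, R1_KO had 1044, R2_KO 1370, R3_KO 1270 and R4_KO 1207, or 81.4% (78.6% to 84.3%). At R4, the element nearest to the genes, R1_KO had 1758, R2_KO 2403, R3_KO 2055 and Rm_KO 2020, or 81.4% (79.2% to 83.7%). The log2 difference was -0.30 at both. The controls had 2102 ± 221 at R2, 1376 ± 26.8 at R3, 1250 ± 68.2 at Rm and 2223 ± 319 at R4 (SD, n = 3 each). R1_KO lay below each control mean by more than 1 SD.

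Single fragments of these blocks gave the same order. R1_KO was the lowest of the 4 libraries carrying the element at 13 of 14 fragments, namely 3 of 3 in R2, 4 of 4 in R3, 2 of 3 in Rm and 4 of 4 in R4. Over the 399 fragments of the whole Hba window R1_KO was the lowest of the same 4 libraries at 23.6% (without R2_KO), 24.8% (without R3_KO), 20.8% (without Rm_KO) and 25.3% (without R4_KO). The exception was chr11:32164968-32165528 in Rm, with 217 in R1_KO, 245 in R2_KO, 217 in R3_KO and 203 in R4_KO. The ratios of the other 13 ran from 67.1% at chr11:32155867-32156381 in R3 to 91.1% at chr11:32169528-32169921 in R4.

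Between the elements, the enhancer cluster (chr11:32139865-32170701) was also lower in R1_KO. Over its 54 fragments outside the 5 blocks R1_KO had 15163 reads per 100000, R2_KO 17245, R3_KO 16801, Rm_KO 18358 and R4_KO 17152. R1_KO was below all 4, with a ratio of 87.2% (86.4% to 88.0%) and a log2 difference of -0.20. Between replicates of the control and paired deletions the SD of this sum was 0.04 on the log2 scale, pooled over 3 groups of 3. The controls had 18898 ± 271 (SD, n = 3) and the ES library 6214. Capture-C does not measure expression, so the labelled cell type was checked only through this contact, which was higher in each of the 5 single deletions than in ES cells. With all reads of the library, other chromosomes included, as the scale, the log2 difference was -0.12 and R1_KO was no longer outside the range.

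Against the mean of the other 4, the gap was widest between R1 and R2 and smaller in each later stretch up to R4. That mean includes libraries that lack an element at an edge of the stretch, some of them low there. A steady narrowing can therefore not be read from it. Between R1 and R2, R1_KO had 3012, R2_KO 3527, R3_KO 3913, Rm_KO 4228 and R4_KO 3874, a log2 difference of -0.37 against a replicate SD of 0.08. Between R3 and Rm it had 4123 and the others 4126 to 4636, a log2 difference of -0.11, just under the lowest of them, R3_KO. Between Rm and R4 it had 2813, R2_KO 3587, R3_KO 3023, Rm_KO 2634 and R4_KO 2725, a log2 difference of -0.09 inside their range. Only Rm_KO and R4_KO, which each lack an element at an edge of that stretch, were lower than R1_KO. The single fragment between R4 and the end of the cluster had 492 in R1_KO and 459 to 652 in the others (-0.22), again inside.

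R1_KO lay below all 4 in 3 of the 6 stretches and under their mean in 6 of 6. The remaining such stretch was the start of the cluster up to R1, with 1536 in R1_KO and 1677 to 1857 in the others (-0.20). From R2 to R3, R1_KO (3186) lay between R2_KO (3087) and the other 3 (3477 to 4417). Of the 54 fragments, R1_KO was the lowest library at 21 (38.9%) and the highest at 3, and over the window it was the lowest of the 5 at 71 of 399 (17.8%). R2_KO was the lowest at 14, R3_KO at 9, and Rm_KO and R4_KO at 5 each.

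**Figure D2:**
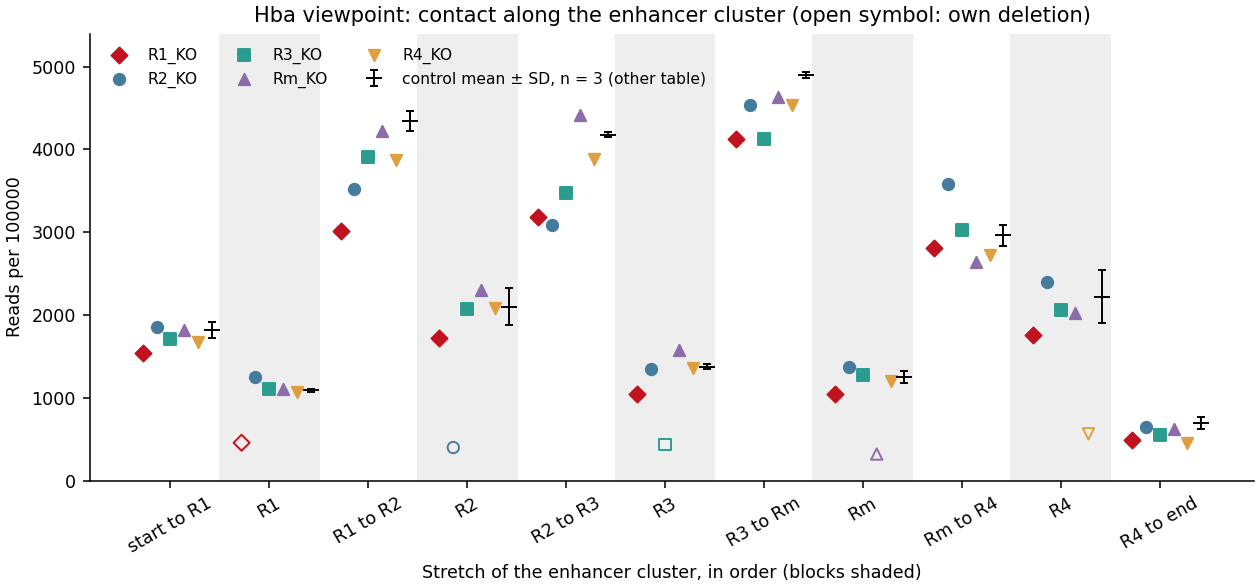
Reads per 100000 from the Hba viewpoint in each stretch of the enhancer cluster, in order along the chromosome, with 1 symbol per library, open where the library lacks that element, and the control mean ± SD (n = 3, from the other table) as black bars. R1_KO is the lowest library that carries the element at R2, R3, Rm and R4, and is 3012 against 3527 to 4228 between R1 and R2.

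The α-globin gene region and the genes upstream of the cluster differed little between R1_KO and the rest. Over the 53 fragments of the α-globin region, which also holds the embryonic gene Hba-x, R1_KO had 23107, R2_KO 24485, R3_KO 23253, Rm_KO 23526 and R4_KO 21081. The log2 difference was 0.00 (ratio 100.1%, 99.3% to 100.8%), with R1_KO inside the range and a replicate SD of 0.07. R1_KO was the lowest library at 2 of 52 fragments there.

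The upstream genes region (chr11:32080071-32135979) holds housekeeping neighbours such as Mpg, a DNA repair glycosylase. R1_KO had 7650 there, R2_KO 8240, R3_KO 7034, Rm_KO 7528 and R4_KO 7781, a log2 difference of 0.00. R1_KO lay inside the range of the others, and of 127 fragments it was the lowest at 23 and the highest at 28.

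Beyond the genes, on the side away from the enhancers, R1_KO had more contact than each of the others. In the downstream region (chr11:32204980-32320310) it had 6936, R2_KO 6196, R3_KO 5690, Rm_KO 6319 and R4_KO 5824. The log2 difference was 0.21 (ratio 115%, 114% to 117%) against a replicate SD of 0.06. R1_KO was the highest library at 32 of 73 fragments there, against 93 of 399 (23.3%) in the window. The controls had 6279 ± 281 (SD, n = 3), so R1_KO also lay above their mean by more than 1 SD. With the chromosome's reads beyond 500 kb as the scale the log2 difference was 0.14 and R1_KO was inside the range.

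Further out the same order was seen at lower contact. In the outer downstream region (chr11:32320311-32699946) R1_KO had 2904 and the others 2060 to 2435, a log2 difference of 0.35 with a replicate SD of 0.11. Far upstream (chr11:31949955-32079920) it had 1619 and the others 1322 to 1513, or 0.17. There R1_KO was inside the range with all reads of the library (0.25) or the reads beyond 500 kb (0.11) as the scale, while outer downstream it was above all 4 under both. In the outer upstream region it had 3095 and the others 2790 to 3101, so R1_KO was inside the range there.

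Summed in bins of 20 kb over chr11 from 31700060 to 32699946, the R1_KO profile was above all 4 others in 31 of 50 bins (62%) and below all 4 in 3 (6%). On the higher-coordinate side of the viewpoint, away from the enhancers, 20 of 26 bins were above and 0 below, with a median log2 difference of 0.33. On the enhancer side 11 of 24 were above and 3 below, with a median of 0.14. The bin that holds R1 and much of the cluster, centred 39.9 kb from the viewpoint, was the lowest of the 50, with a log2 difference of -0.26.

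**Figure D3:**
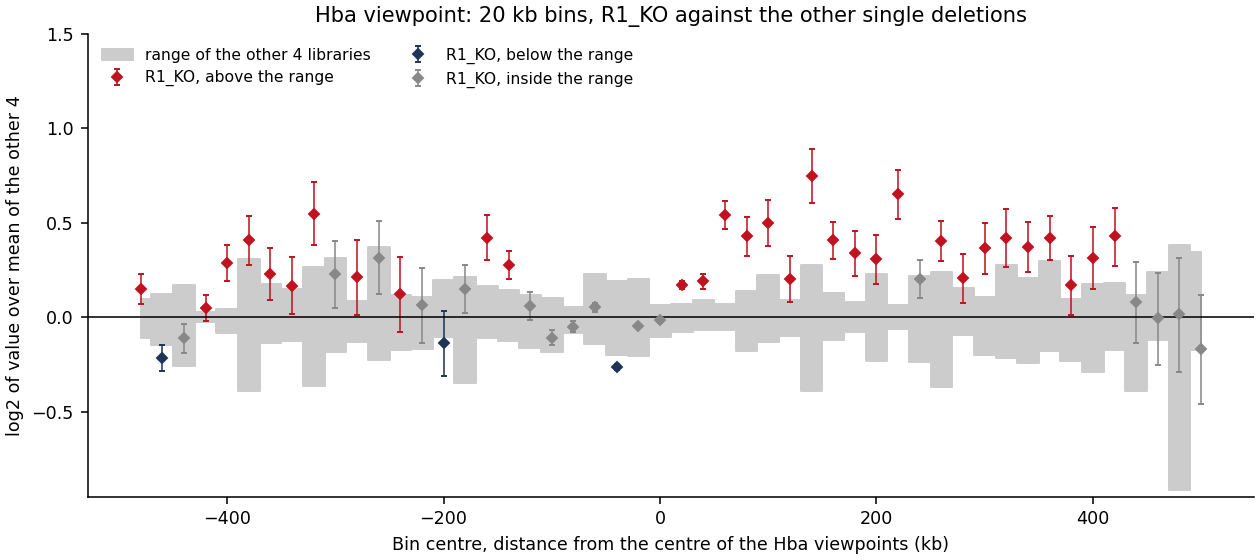
Log2 ratio of R1_KO to the mean of the other 4 libraries in 20 kb bins, by distance from the centre of the Hba viewpoints in kb (negative towards the enhancers), with 95% counting intervals as bars and the range of the other 4 in grey. The R1_KO points lie above the grey range in 31 of 50 bins, 20 of them on the right, and below it in 3.

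By distance from the Hba viewpoint, R1_KO had a smaller share of the chromosome's reads in the middle range and a larger one in the far range. From 10 to 50 kb, where the enhancers lie, it had 28.9% and the others 30.3% to 33.1%. From 100 to 500 kb it had 8.27% and the others 6.89% to 7.60%. The share from 100 to 500 kb was also above all 4 at both reference viewpoints, with 7.85% against 6.01% to 6.51% at Hbb and 5.94% against 5.15% to 5.81% at Slc25a37. The share from 10 to 50 kb was below all 4 at Slc25a37, with 32.8% against 33.9% to 41.0%, and inside the range at Hbb, with 29.4% against 29.2% to 36.8%. In 20 kb bins R1_KO was above all 4 in 28 of 50 (56%) and below in 10 (20%) around the Hbb viewpoint, and above in 13 of 50 (26%) and below in 8 (16%) around Slc25a37. The higher share of R1_KO from 100 to 500 kb therefore also appears at both loci where nothing was deleted. Its lower share from 10 to 50 kb appears at Slc25a37, and at Hbb it was in the lower part of the range. Far bins at Hbb were not all higher. The bin centred 481 kb from the viewpoint had 7.53 in R1_KO and 44.6 to 81.0 in the others.

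Few single fragments of the Hba window stood out in R1_KO. A fragment was called where it had 250 or more reads over the 5 libraries and R1_KO was past 1.5-fold of the mean of the other 4 and outside their range. The R1 block was left out. Of 399 fragments 15 were lower (3.76%) and 15 higher (3.76%). The other libraries, each against its own 4, had 13 to 31 lower and 8 to 38 higher, so R1_KO was within their spread in both directions. With all reads of the library as the scale the split was 12 lower and 25 higher, and with the reads beyond 500 kb it was 18 lower and 12 higher.

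The enhancer cluster had 3 lower calls and 0 higher among 68 fragments, all 3 in the run after the R1 block (57.1%, 52.4% and 66.0%, above). The downstream region had 0 lower and 5 higher of 73, and the α-globin region 0 of 52 in either direction. The outer upstream region had 11 lower and 7 higher of 46. With 1000 or more reads over the 5 libraries as the minimum, 4 of 220 fragments (1.82%) were lower and 0 higher. They were those 3 and chr11:32137425-32137801, which lies 6.58 kb before the R1 block and is named here after its values were seen. It had 110 in R1_KO, 248 in R2_KO, 161 in R3_KO, 159 in Rm_KO and 144 in R4_KO, or 61.6%.

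The largest called ratios away from R1 rest on few reads. The lowest was chr11:31775287-31775593 in the outer upstream region, with 9.26 in R1_KO (37 reads) against 19.1 in R2_KO, 33.8 in R3_KO, 24.3 in R4_KO and 44 reads in Rm_KO, or 40.6% (28.0% to 57.4%). Of the 10 lowest called fragments 8 were in that region, with 32 to 121 reads in a library, and the remaining 2 were the pair beside R1. The highest was the 41 bp fragment chr11:32209829-32209869 in the downstream region, with 28.5 in R1_KO (114 reads) against 13.7 in R3_KO, 10.5 in Rm_KO, 11.4 in R4_KO and 40 reads in R2_KO, or 217% (169% to 278%). Also in the downstream region, chr11:32227297-32227379 had 48.0 in R1_KO (192 reads) and 19.0 to 32.6 in the others, or 180%. Called fragments had a median of 342 (lower) and 292 (higher) reads over the 5 libraries, and those not called 1253.

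At the β-globin viewpoint, contact with the locus control region, the enhancer group of the β-globin genes, was in the lower part of the range in R1_KO. Over 63 fragments (chr7:110994810-111023773) R1_KO had 21404, R2_KO 28526, R3_KO 23610, Rm_KO 23690 and R4_KO 21224. The log2 difference was -0.18 (ratio 88.2%, 87.2% to 89.2%) with R1_KO inside the range, and the replicate SD was 0.10. R1_KO was below all comparators with reads within 500 kb as the scale (-0.11), by median of ratios (-0.16) and without R4_KO (-0.24). R2_KO was the high library. Without it the log2 difference was -0.09.

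The adult β-globin genes were, with the scale used here, the only Hbb region in which R1_KO was below all 4, and it was not below them without the low fragments. R1_KO had 5869 there, R2_KO 7016, R3_KO 6716, Rm_KO 7289 and R4_KO 6435, a log2 difference of -0.23 against a replicate SD of 0.31. Without the low fragments it had 5338 and the others 4735 to 5519, a log2 difference of 0.06 inside their range. The replicate SD was 0.17 without them. R1R2_KO library 1, from which these fragments were chosen, is among the libraries behind both SDs. The locus control region without its low fragments gave -0.15, still inside the range. The embryonic genes (Hbb-bh1 and Hbb-y, expressed before birth) went from -0.05 to 0.04, inside the range both ways. The 5-prime side was above all 4 with them (0.20) and without them (0.21). In the locus control region, the removal left in fragments that were lower in both R1_KO and R1R2_KO library 1. At chr7:111016072-111016871, R1_KO had 56.4% and R1R2_KO library 1 had 48.4% of their comparators' means. Not all fragments followed this, since chr7:111023654-111023773 had 54.3% and 119%. How far such fragments shape the -0.15 was not tested.

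The 23 low Hbb fragments were read from 199 that had enough reads in both tables. Of the 199, R1R2_KO library 1 was under 25% of the mean of its 2 sister libraries at 23 (11.6%), and R1_KO held less than 25% of the comparators' mean at 14 (7.04%). All 14 were among the 23. Over all 297 Hbb fragments R1_KO was under 25% at 18. The other 4, not among the 199 compared, lie in the 5-prime side (3) and the adult genes (1) and stay in the values without the low fragments. Over the 23, R1_KO ran from 4.66% to 62.5% with a median of 12.8%, and was the lowest single deletion at 23 of 23. Over the remaining 176 its median was 103%, and it was the lowest single deletion at 45. No other replicated library had more than 1 such fragment at any viewpoint.

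By location, 12 of the 34 fragments compared in the adult genes region were among the 23. The embryonic genes region had 4 of 31 and the locus control region 5 of 62. The 5-prime side had 1 of 55 and the 3-prime boundary 1 of 17. The lowest of the 23 in R1_KO was chr7:111059870-111060063 in the 5-prime side, with 2.89 in R1_KO, 71.6 in R2_KO, 50.5 in R3_KO, 60.0 in Rm_KO and 66.1 in R4_KO. It had 0 in R1R2_KO library 1, 74.0 and 48.3 in libraries 2 and 3, and 4.82 in ES cells. In the adult genes region, chr7:110970418-110970616 had 9.26 in R1_KO, 154 to 190 in the other 4 and 5.26 in ES cells. There R1R2_KO library 1 had 2.81 and its sister libraries 152 and 155.

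The nearby chr7:110965497-110965644 had 1.74 in R1_KO and 26.0 to 40.0 in the others. All 3 fragments were thus nearly without reads in R1_KO, R1R2_KO library 1 and ES cells, and well covered elsewhere. The labels give R1_KO and R1R2_KO the same strain as the other erythroid libraries, and ES cells another. What these libraries share was not tested.

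**Figure D4:**
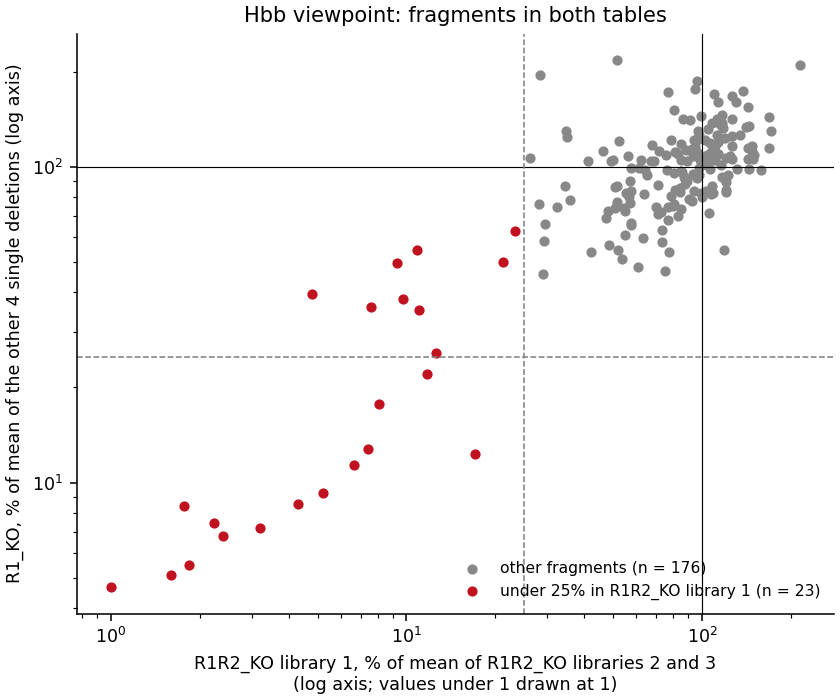
Each point is 1 of 199 Hbb fragments; the horizontal axis is R1R2_KO library 1 as a percentage of the mean of R1R2_KO libraries 2 and 3, the vertical axis R1_KO as a percentage of the mean of the other 4 single deletions, both on log axes, with 25% dashed. All 14 fragments under 25% in R1_KO are among the 23 under 25% in R1R2_KO library 1 (red), and the other 176 centre on 103%.

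Over all Hbb fragments, 61 of 297 were called lower in R1_KO (20.5%) and 31 higher (10.4%), while the other libraries had 11 to 23 lower and 6 to 19 higher. Without the 23 fragments 38 of 274 were lower and 31 higher. R1_KO therefore had more lower calls than each of the other 4 with or without them. Higher calls lay mostly in the 5-prime side, 20 of 31, a region that holds 109 of the 297 fragments. The highest was chr7:111035573-111036366, with 75.8 in R1_KO (131 reads) and 19.0 to 51.5 in the others, or 238%.

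At the Slc25a37 viewpoint R1_KO had the lowest contact with the upstream region, where this gene's erythroid contacts lie. Over 133 fragments (chr14:69906474-69959889) it had 29228, R2_KO 38138, R3_KO 32139, Rm_KO 30477 and R4_KO 30457. R1_KO was below all 4, with a log2 difference of -0.17 (ratio 89.1%, 88.1% to 90.1%) and a replicate SD of 0.08. Without R2_KO, again the highest library, the log2 difference was -0.09, about the size of that SD. With all reads of the library as the scale it was -0.15 and inside the range.

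The rest of that locus differed less. Over the gene body R1_KO had 17634 and the others 17659 to 19938 (-0.06), below all 4 by a small margin. Far upstream it had 2638 and the others 2332 to 2636 (0.10). Of 221 fragments 11 were lower (4.98%) and 2 higher (0.905%), and the other libraries had 5 to 32 lower. The lowest was chr14:69952223-69952329 in the upstream region, with 26.3 in R1_KO (34 reads) and 36.8 to 90.3 in the others, or 39.5%.

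**Figure D5:**
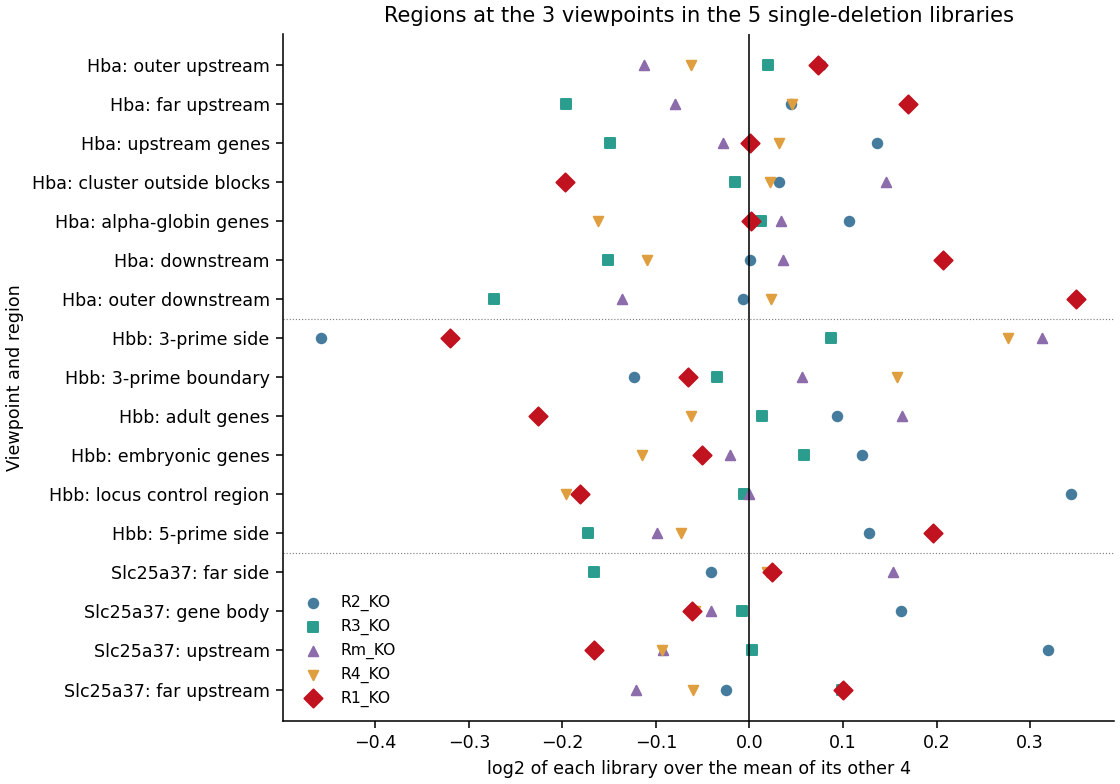
Log2 ratio of each single-deletion library to the mean of its other 4, by region and viewpoint, with 1 symbol per library and R1_KO as a red diamond. R1_KO is the lowest library in the Hba cluster outside the blocks (-0.20) and the Slc25a37 upstream region (-0.17), next to lowest in the Hbb locus control region (-0.18), and the highest in the Hba downstream region (0.21).

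Set against the references, the lower contact of R1_KO with the cluster as a whole was about as large as that with the enhancer regions of the other loci. The cluster's log2 difference of -0.20 less the mean of the Hbb locus control region (-0.18) and the Slc25a37 upstream region (-0.17) left -0.02. The same quantity was -0.30 in R2_KO, -0.01 in R3_KO, 0.19 in Rm_KO and 0.17 in R4_KO, so R1_KO was the next to lowest of the 5, close to R3_KO. Over the 8 ways of scaling and summarising it ran from -0.10 to 0.04. Leaving out a comparator was not among these. Without R2_KO the cluster was at -0.20, the locus control region at -0.09 and the Slc25a37 upstream region at -0.09, so the near match depends on R2_KO. A deletion-specific share of the cluster's lower contact cannot be told apart from the library's own profile with 1 library.

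Single stretches differed in what was left. Against the same libraries' references, the start of the cluster up to R1 kept a difference of -0.03, the stretch between R1 and R2 -0.19, the R2 block -0.23, the R3 block -0.27, the Rm block -0.10 and the R4 block -0.08. Without the low Hbb fragments these were -0.04, -0.21, -0.24, -0.28, -0.11 and -0.09. The replicate SDs (log2) of these places were 0.08, 0.08, 0.17, 0.25, 0.12 and 0.14 in the same order, those of R2 and R3 with the libraries that lack these elements. These SDs are of the places alone. They leave out the spread of the references, 0.10 at the locus control region and 0.08 at Slc25a37 upstream. The values up to R1, at Rm and at R4 were smaller than the place's own SD. Those at R2 and R3 were just larger than it, and that between R1 and R2 exceeded it most. Whether any lies beyond the spread of the difference itself was not tested. For the α-globin region, whose own log2 difference was 0.00, the same subtraction left 0.17 against a replicate SD of 0.07. A region that itself differed little thus also exceeded its own SD, in the opposite direction.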

How the data were processed

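NG Capture-C contacts of 3 promoter viewpoints were taken from the deposited tables, in which the authors gave unscaled counts of reads for each DpnII fragment. The submitters' processing notes name Bowtie, Trim Galore and the build mm9, without versions. The single deletions and ES cells share 1 table per viewpoint, and the controls and paired deletions another, so values set across them were tabulated apart. The replicated tables hold 7 further columns each (21 in all) that match no sample and were not used. The sources used here do not say how reads shared by Hba-a1 and Hba-a2 were assigned.

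Viewpoints were gaps of at least 1500 bp in the tables. Counts were divided by the reads of the viewpoint's chromosome more than 2 kb from these gaps, per 100000. Regions are approximate and were snapped to fragments by midpoint. R1_KO was set against the mean and range of R2_KO, R3_KO, Rm_KO and R4_KO, with exact (Clopper-Pearson) 95% intervals. There was no test, because each group has 1 library. The spread between replicates is the SD of log2 values within control, R1R2_KO and R2R3_KO, pooled (6 degrees of freedom); these libraries had 11529 to 88666 scale reads, so counting error adds to it. The labels call them biological replicates.

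Element blocks start at the lowest fragment and extend while the library lacking the element has under 50% of the mean of the other 4. Named fragments are the R1 block with its neighbours and, by ratio, up to 10 called fragments in each direction at Hba and 3 at Hbb and Slc25a37, of which the text prints some. The fragments beside these, the element-block fragments and the Hbb fragments low in R1R2_KO library 1 (at least 30 reads over libraries 2 and 3) were added after seeing the data. Members, regions, lists and rules were chosen with earlier results of these data known. The calling step was tested on simulated data. Alternatives were other scales, exclusion zones, thresholds, comparators and each comparator left out. Promoter sequences came from RefSeq (GRCm38.p6). Python 3.11.15, numpy 2.4.6, pandas 2.3.3 and scipy 1.17.1 were used.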

Additional observations from a re-analysis of the deposited data

How the results depend on the processing

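Each value is the log2 difference of R1_KO from its comparators unless named as a count. The α-globin and upstream genes regions, near 0, took either sign. Without the low Hbb fragments the adult β-globin genes went from -0.23 to 0.06 and the embryonic ones from -0.05 to 0.04. No other summed region that was recomputed changed sign. The cluster outside the blocks was -0.12 with all reads as the scale, -0.17 with reads within 500 kb, -0.26 with reads beyond 500 kb, -0.21 by median of ratios, -0.18 with the median of the comparators and -0.18 with blocks widened by 1 kb. The α-globin region was 0.077, 0.026, -0.066 and -0.012 under the first 4 of these, -0.011 without the blocks in the scale and -0.018 with the median. The locus control region was -0.11, -0.28 and -0.16 with reads within 500 kb, beyond 500 kb and by median of ratios, -0.14 with the median and -0.15 without the low Hbb fragments. The Slc25a37 upstream region was -0.15, -0.073, -0.33 and -0.061 under the 4 scales, -0.19 with a 5 kb exclusion zone and -0.10 with the median. Leaving out each comparator gave -0.21 to -0.17 for the cluster, -0.040 (without R4_KO, then below all) to 0.031 for the α-globin region, -0.24 to -0.094 for the locus control region and -0.20 to -0.086 for Slc25a37 upstream. R2_KO was the library whose removal gave the smaller value at both references.

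Lower and higher Hba fragments numbered 15 and 15. They numbered 2 and 1 at 2-fold, 43 and 53 past 125% or under 80% of the comparators' mean, 157 and 440 of 2152 with no filter, 4 and 0 of 220 at 1000 reads, and 2 and 24 of 173 as 5 kb bins. There were 25 higher with all reads as the scale. Leaving out a comparator gave 17 to 21 lower and 18 to 24 higher, the 24 without R2_KO. The low Hbb fragments and leaving out all 5 blocks were alternatives chosen after seeing the data. No paired analysis was possible because each single deletion has 1 library and no test was run. With 1 library a deletion cannot be told apart from its culture, and fragments under 250 reads are limited by depth.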
